A study of Homo sapiens with 6 samples.

Results

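Genes of transforming growth factor beta (TGF-beta) and bone morphogenetic protein (BMP) signaling were followed in Hep3B cells, an established human hepatocellular carcinoma line. They are the ligand genes TGFB1, TGFB2 and BMP4, the receptor genes TGFBR1 and TGFBR2, the inhibitory SMAD genes SMAD6 and SMAD7, and the ID genes ID1, ID2 and ID3. These 10 members were taken by their symbols from the 23228 genes of the deposited count tables, and all 10 passed the filter on low counts that left 14537 genes for testing. In the PELP1-KD-labelled libraries, 4 members fell (TGFB1, TGFBR2, ID1 and ID3), 3 rose slightly (SMAD6, SMAD7 and ID2), and TGFB2, BMP4 and TGFBR1 were not called. TGFB1 was the only member that changed at least 2-fold. Of all tested genes, 26.8% were called higher, 26.7% were called lower, and 7.64% were called with at least a 2-fold change.

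RNA was sequenced from 3 libraries of Hep3B cells that carried a non-targeting shRNA (labelled shRNA control) and from 3 libraries labelled PELP1 KD, called PELP1-KD below. All cells were cultured in RPMI medium and received shRNA lentivirus, and the PELP1-KD cells were puromycin-selected, with stable clones that were pooled. The titles name the first PELP1 shRNA while the protocol names both, so the hairpin is uncertain, and nothing says whether the 3 replicates came from separate cultures, so the p-values measure the spread between these libraries, which may be technical. The paper reports lower PELP1 protein by Western blot in its Hep3B knockdown cells. PELP1 RNA itself stood at 94.5% of the control level in the PELP1-KD-labelled libraries (log2 fold change −0.08 ± 0.04 SE, edgeR adjusted p = 0.101, and 0.0106 with the replicate number as a block). Its groups did not overlap (4893 to 5102 against 4421 to 4840 normalized reads), as for 58.8% of all tested genes. Each direction below is therefore that of the labels.

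TGF-beta and BMP ligands are secreted dimers that bring together a type I and a type II receptor on the cell surface. The type II receptor phosphorylates the type I receptor, which then phosphorylates SMAD proteins, mainly SMAD2 and SMAD3 for TGF-beta and activin and SMAD1, SMAD5 and SMAD9 for BMP. These enter the nucleus with SMAD4 and switch on target genes, among them SMAD6 and SMAD7, which feed back to block the receptors, and the ID genes. In liver, TGF-beta is known for restraining hepatocyte growth and for driving scarring, and BMP signaling for setting the iron hormone hepcidin.

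The promoters of the 3 ID genes and of SMAD6 are printed because ID2 moved in the other direction from ID1 and ID3, and because SMAD6 is the member whose promoter holds the palindromic SMAD motif. Each run is the 250 bases before the RefSeq start on GRCh38.p14, 5′ to 3′ on the strand of the gene, and capitals mark GTCT or its reverse complement AGAC, the core sequence that SMAD3 and SMAD4 bind.

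ID1, chr20:31605039-31605288, plus strand: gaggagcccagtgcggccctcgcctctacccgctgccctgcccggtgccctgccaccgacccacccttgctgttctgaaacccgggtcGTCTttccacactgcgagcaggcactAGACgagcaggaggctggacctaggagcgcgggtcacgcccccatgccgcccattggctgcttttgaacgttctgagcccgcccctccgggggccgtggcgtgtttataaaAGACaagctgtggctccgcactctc
ID2, chr2:8681806-8682055, plus strand: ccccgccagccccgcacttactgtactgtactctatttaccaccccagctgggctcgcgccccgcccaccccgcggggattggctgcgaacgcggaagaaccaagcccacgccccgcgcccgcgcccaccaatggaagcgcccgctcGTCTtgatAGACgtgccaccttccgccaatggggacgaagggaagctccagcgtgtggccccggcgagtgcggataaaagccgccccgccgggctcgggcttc
ID3, chr1:23559502-23559751, minus strand: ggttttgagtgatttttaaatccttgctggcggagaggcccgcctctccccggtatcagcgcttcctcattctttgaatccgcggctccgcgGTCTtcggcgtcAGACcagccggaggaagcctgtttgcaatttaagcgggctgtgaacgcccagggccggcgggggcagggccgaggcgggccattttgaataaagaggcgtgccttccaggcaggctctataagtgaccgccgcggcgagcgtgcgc
SMAD6, chr15:66701986-66702235, plus strand: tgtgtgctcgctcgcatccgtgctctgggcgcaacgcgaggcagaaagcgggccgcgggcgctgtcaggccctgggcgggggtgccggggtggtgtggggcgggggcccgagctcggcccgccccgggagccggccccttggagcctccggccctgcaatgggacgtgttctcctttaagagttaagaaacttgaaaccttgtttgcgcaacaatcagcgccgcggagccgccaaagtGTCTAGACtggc

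All 10 members matched the RefSeq promoter table, which gives 22 windows for them because several have more than 1 start. The core GTCT or AGAC stood in 17 of these 22 windows and in 77.5% of all 35116 windows of the same length, so its presence sets no member apart. The ID1 window held 3 matches, beginning 162, 136 and 25 bases before the start, and the ID2 and ID3 windows held 2 each. The palindrome GTCTAGAC, in which both orientations of the core stand end to end, stood in 1 of the 22 windows, that of SMAD6, beginning 12 bases before the start, and in 0.182% of all windows. The GC-rich motif GGCGCC, which SMAD1 and SMAD5 can bind, stood in 2 member windows, 1 of BMP4 and 1 of TGFBR1, and in 16.4% of all windows. ID1, ID2 and ID3 thus share the core motif in these windows while their RNA moved in different directions. The windows were searched on both strands, and the 1 window of TGFB1, the member with the largest change, held none of the 3 motifs. A match is a description of letters, not a mapped binding site, and whether matches bear on the direction of a change was not tested.

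Among the ligands, TGFB1 fell and TGFB2 and BMP4 were not called. TGFB1 encodes TGF-beta 1, and its hg19 position is chromosome 19, 41836812 to 41859831, minus strand. It had 1808, 1888 and 1878 normalized reads (reads scaled to a common library size) in control and 555, 666 and 629 in the PELP1-KD-labelled libraries. The lowest control value was thus far above the highest of the other group. The means were 1858 ± 43.9 and 617 ± 56.7 (SD, n = 3 each), so that 33.2% of the control level remained. The log2 fold change was −1.59 ± 0.06 (SE, 95% interval −1.76 to −1.43, adjusted p = 2.12e-14 from edgeR). In bulk RNA, fewer cells that express a gene and less RNA per cell cannot be told apart.

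TGFB2 encodes a second TGF-beta isoform and lies on chromosome 1 from 218518676 to 218617961 on the plus strand. It had 355, 362 and 353 normalized reads in control and 352, 373 and 334 in the PELP1-KD-labelled libraries. The control values lay within the range of the others. Its log2 fold change was −0.02 with a 95% interval of −0.23 to 0.19 (adjusted p = 0.87), so a change of more than about that size in either direction lies outside the interval. BMP4, on chromosome 14 from 54416455 to 54423554 on the minus strand, encodes a BMP ligand. It had 299.8, 251 and 317 normalized reads in control and 272, 327 and 279.7 in the PELP1-KD-labelled libraries, again with overlap. Its log2 fold change was 0.01 with a 95% interval of −0.26 to 0.29 (adjusted p = 0.916). Within a library, the level of TGFB1 per exon length was between 13.8 and 14.4 times that of TGFB2 in control and between 4.26 and 5.10 times in the PELP1-KD-labelled libraries.

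**Figure D1:**
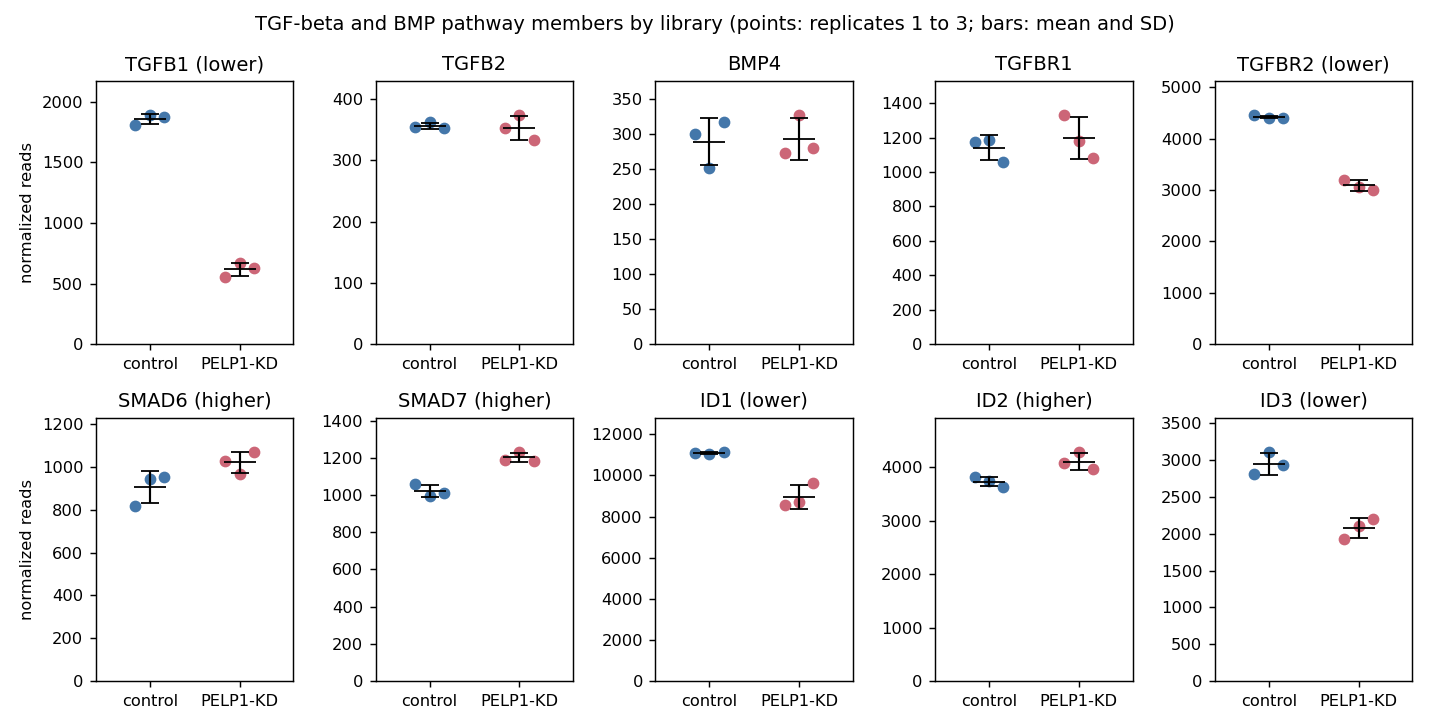
Normalized reads (vertical axes, from 0) of the 10 members in each library, with points for replicates 1 to 3 of control (blue) and PELP1-KD (red) and bars for the mean and SD. TGFB1 falls from 1858 to 617 on average with no overlap, TGFBR2, ID1 and ID3 fall by less, SMAD6, SMAD7 and ID2 rise slightly, and the groups overlap for TGFB2, BMP4 and TGFBR1.

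The receptors differed in the same way, with TGFBR2 lower and TGFBR1 not called. TGFBR2 encodes the type II receptor that binds TGF-beta ligands, and lies on chromosome 3 from 30647994 to 30735633 on the plus strand. It had 4456, 4409 and 4407 normalized reads in control and 3203, 3066 and 3007 in the PELP1-KD-labelled libraries, with a wide gap between the groups. The log2 fold change was −0.52 ± 0.04 (SE, 95% interval −0.62 to −0.41, adjusted p = 1.05e-09), which left 69.9% of the control level. TGFBR1 encodes the type I receptor that TGFBR2 activates, and lies on chromosome 9 from 101867412 to 101916473 on the plus strand. It had 1177, 1187.5 and 1061 normalized reads in control and 1329, 1181 and 1084 in the PELP1-KD-labelled libraries. These values overlapped, and the log2 fold change was 0.07 with a 95% interval of −0.11 to 0.25 (adjusted p = 0.401). Without replicate 3 of PELP1-KD it was 0.14 and called higher (adjusted p = 0.0367). The ratio of TGFBR2 to TGFBR1 per exon length lay between 5.11 and 5.72 in control and between 3.32 and 3.82 in the PELP1-KD-labelled libraries.

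Both inhibitory SMAD genes were slightly higher. SMAD7 encodes the inhibitor that holds back TGF-beta and BMP receptors alike, and lies on chromosome 18 from 46446223 to 46477081 on the minus strand. It had 1057, 996 and 1013 normalized reads in control and 1189.6, 1231 and 1186 in the PELP1-KD-labelled libraries. All 3 of the latter lay above all controls. The log2 fold change was 0.23 ± 0.05 (SE, 95% interval 0.09 to 0.37, adjusted p = 0.000623), or 118% of control. SMAD6 encodes an inhibitor that acts mainly on BMP signaling, and lies on chromosome 15 from 66994674 to 67074337 on the plus strand. It had 819, 946 and 952 normalized reads in control and 1026, 968 and 1069.8 in the PELP1-KD-labelled libraries. The groups were close, with the highest control value just below the lowest of the others. The log2 fold change was 0.18 ± 0.06 (SE, 95% interval 0.00 to 0.35, adjusted p = 0.0246). This call rested on replicate 1 of control, without which the log2 fold change was 0.11 (adjusted p = 0.184). SMAD7 and SMAD6 stood at similar levels per exon length in each library, with ratios between 0.965 and 1.18 in control and between 1.02 and 1.17 in the PELP1-KD-labelled libraries.

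The ID genes moved in both directions. ID proteins are helix-loop-helix proteins without a DNA-binding region. They pair with E proteins such as TCF3, TCF4 and TCF12 and keep them off DNA, which in many tissues holds back differentiation. ID1, on chromosome 20 from 30193086 to 30194317 on the plus strand, had 11074, 11065 and 11136 normalized reads in control. It had 8549.6, 8699 and 9616 in the PELP1-KD-labelled libraries, where replicate 3 was the highest but still below all controls. In 5 of the 6 libraries its deposited count was not whole, so some of its reads were shared out with other places or genes. The groups did not overlap, and ID1 fell to 80.7% of control, a log2 fold change of −0.31 ± 0.04 (SE, 95% interval −0.42 to −0.20, adjusted p = 1.82e-06).

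ID3, on chromosome 1 from 23884409 to 23886322 on the minus strand, had 2806, 3109 and 2930.4 normalized reads in control and 1927, 2105 and 2194 in the PELP1-KD-labelled libraries. The groups did not overlap. ID3 fell to 70.4% of control, a log2 fold change of −0.51 ± 0.05 (SE, 95% interval −0.65 to −0.37, adjusted p = 6.7e-08). ID2, on chromosome 2 from 8822113 to 8824583 on the plus strand, went the other way. It had 3816, 3744 and 3641 normalized reads in control and 4075, 4287 and 3963 in the PELP1-KD-labelled libraries, where each value was above each control. The log2 fold change was 0.14 ± 0.04 (SE, 95% interval 0.02 to 0.25, adjusted p = 0.00763), and 0.11 without replicate 2 of PELP1-KD, where the call was lost (adjusted p = 0.0736).

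Per exon length, the summed level of the 3 ID genes lay between 444 and 449.8 RPKM (reads scaled by exon length in kilobases and by TMM-scaled library size) in control and between 363 and 395 in the PELP1-KD-labelled libraries. The make-up of this sum shifted with it. ID1 made up between 63.5% and 64.6% of it in control and between 59.6% and 62.9% in the PELP1-KD-labelled libraries, and ID3 between 15.6% and 17.1% and between 13.1% and 13.8%. ID2 made up between 19.1% and 20.03% in control and between 23.4% and 26.5% in the PELP1-KD-labelled libraries. The groups did not overlap for any of these shares, which are descriptions with no test.

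**Figure D2:**
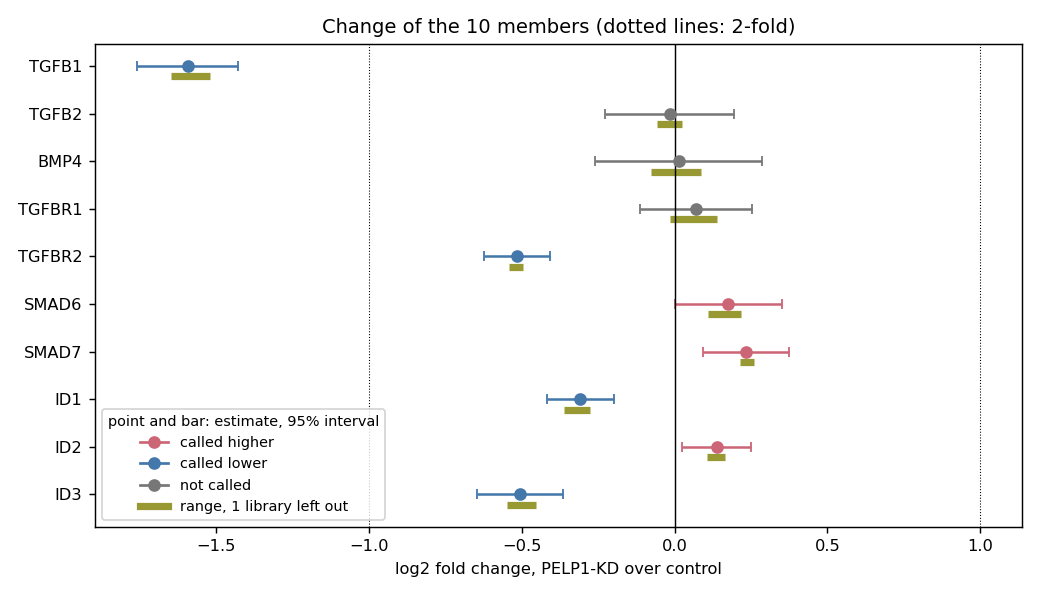
Log2 fold change of each member, PELP1-KD over control (horizontal axis), with points for the estimate, thin bars for the 95% interval, thick bars for the range when 1 library is left out, and dotted lines at a 2-fold change. TGFB1 lies at −1.59, beyond the 2-fold line, the other called members lie between −0.52 and 0.23, and the intervals of TGFB2, BMP4 and TGFBR1 include 0.

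Over the 10 members, 7 passed an adjusted p below 0.05, where 53.6% of all tested genes did, and 1 also changed at least 2-fold, where 7.64% did. The 3 members called higher stand beside 26.8% of all tested genes, the 4 called lower beside 26.7%, and the 1 member lower by at least 2-fold beside 4.79%. These 7 were also the members whose groups did not overlap, which held for 58.8% of all tested genes (29.5% with the PELP1-KD-labelled libraries higher and 29.3% with them lower). The median log2 fold change of the members was −0.0013 and their median absolute log2 fold change 0.205, against 0.0045 and 0.195 over all tested genes. The number of calls among the members was thus near what the whole table shows, and TGFB1 was the member with a change far outside the usual size.

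Levels per exon length spread widely among the members. In control, ID1 was the highest at 286 ± 0.997 RPKM (SD, n = 3), followed by ID2 at 87.1 ± 2.05, ID3 at 72.8 ± 3.76, TGFBR2 at 29.9 ± 0.188 and TGFB1 at 26.9 ± 0.634. SMAD7 at 9.44 ± 0.291 and SMAD6 at 9.12 ± 0.759 came next, and their ranges overlapped. TGFBR1 at 5.61 ± 0.346, BMP4 at 4.44 ± 0.522 and TGFB2 at 1.91 ± 0.0265 were the lowest. In the PELP1-KD-labelled libraries the order differed in the place of TGFB1, which at 8.92 ± 0.820 RPKM lay below SMAD7 (11.1 ± 0.232) and SMAD6 (10.3 ± 0.512). No other pair of neighbours in either order had overlapping ranges.

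**Figure D3:**
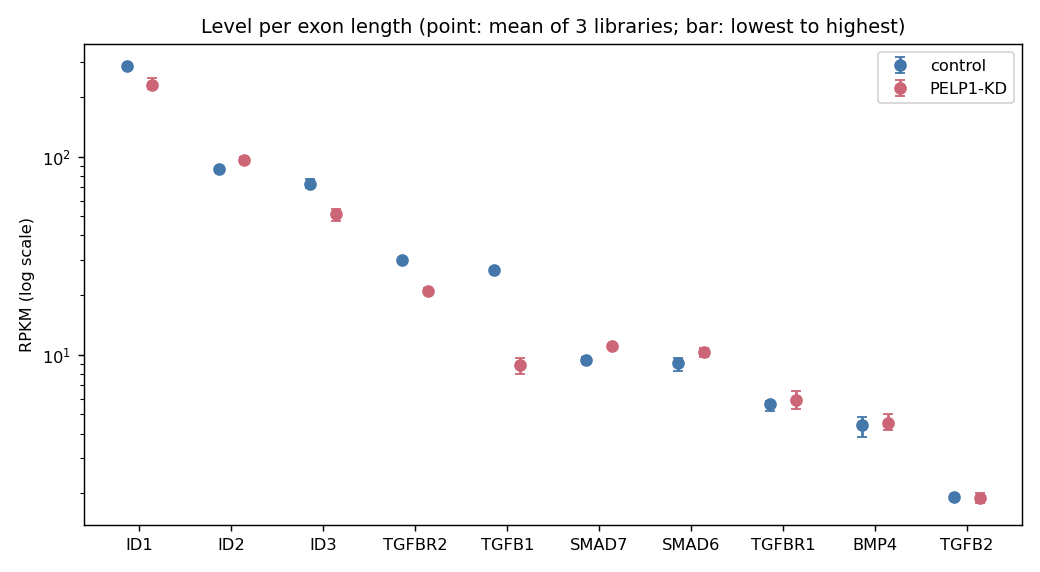
Level per exon length in RPKM (vertical axis, log scale) of each member, ordered by its control level, with points for the mean of 3 libraries of control (blue) and PELP1-KD (red) and bars from the lowest to the highest library. ID1 is highest at 286 RPKM in control and TGFB2 lowest at 1.91, and TGFB1 drops from 26.9 to 8.92 RPKM, below SMAD7 and SMAD6.

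The wider pathway was read from 120 other genes sorted into 10 lists by role. Of these, 93 were tested, 26 were called higher and 34 lower, and 33 were not called. The share called was 64.5%, against 53.6% of all tested genes. For the counts by list below, 26.8% of all tested genes were called higher and 26.7% lower. The lists were chosen with earlier results of these data known. By at least 2-fold, 6 were higher and 13 lower, where 2.85% and 4.79% of all tested genes were.

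Of the 12 TGF-beta and activin ligand genes, 10 were tested, 2 were higher and 4 lower. INHBB, which encodes the beta B subunit of activin and inhibin, fell from 339 ± 13.4 normalized reads to 22.2 ± 6.48 (SD over 3 libraries), a log2 fold change of −3.94 ± 0.15 (SE, adjusted p = 2.26e-14). Its reads in the PELP1-KD-labelled libraries were 16, 25 and 21. INHBE, which encodes the beta E subunit made mainly in liver, fell to 42.8% of control (log2 fold change −1.22, adjusted p = 3.47e-11). INHA, the shared alpha subunit of inhibins, rose from 42.1 ± 8.36 to 85.9 ± 15.6 normalized reads (log2 fold change 1.03, adjusted p = 0.000161). Genes for subunits that pair with each other in activins and inhibins thus moved in both directions.

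The BMP and GDF ligand list was mostly silent, with 7 of 18 genes tested, 2 higher, 0 lower and 5 at 0 reads in all 6 libraries. Of the 11 not tested, BMP7 had 9, 10 and 11 reads in control and 1, 0 and 0 in the PELP1-KD-labelled libraries. BMP2 was the most abundant of the BMP genes named here, at 5032 ± 69.1 and 5038 ± 136 normalized reads (SD, n = 3 each), and was not called (log2 fold change 0.00, 95% interval −0.10 to 0.10). BMP6, a ligand that controls hepcidin in the liver, had 16 reads or fewer in each control library and between 2 and 18 in the others, and was not called (adjusted p = 0.55). GDF1 was called higher (log2 fold change 0.34, adjusted p = 1.76e-05), but all 2558 of its exon bases are shared with CERS1, so its reads cannot be told from those of that gene.

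Receptors and co-receptors went both ways, with 14 of 17 genes tested, 7 higher and 3 lower. AMHR2, the type II receptor of anti-Müllerian hormone, rose from 28.2 ± 3.21 to 73.5 ± 13.1 normalized reads (log2 fold change 1.37, adjusted p = 1.51e-05). HFE2, which encodes hemojuvelin, a BMP co-receptor for hepcidin, fell from 96.7 ± 14.6 to 16.2 ± 6.84 (log2 fold change −2.56, adjusted p = 3.35e-08). Both were rare.

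In the list for latency and release of TGF-beta outside the cell, 9 of the 10 tested genes were called, with 4 higher and 5 lower. Of all tested genes, 53.6% were called. LTBP2 and LTBP4 were listed by family, the latent TGF-beta binding proteins, and whether each binds TGF-beta was not examined. They fell with log2 fold changes of −1.94 (adjusted p = 5.26e-09) and −1.10 (adjusted p = 0.000244). ITGB6 and ITGB8, whose integrins activate latent TGF-beta, rose from 28.9 ± 7.96 to 77.9 ± 7.97 and from 103 ± 14.8 to 311 ± 16.4 normalized reads (SD, n = 3 each). Their log2 fold changes were 1.43 (adjusted p = 1.14e-05) and 1.59 (adjusted p = 3.17e-10).

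No extracellular antagonist was called higher, while 7 of the 10 tested were lower, beside 26.8% and 26.7% of all tested genes. NBL1, among those called lower, shares 1892 of its 2863 exon bases with C1orf15-NBL1. GREM1, which encodes the BMP antagonist gremlin 1, had 32, 32 and 37 reads in control and 1, 2 and 1 in the PELP1-KD-labelled libraries, a ratio of 22.5 after scaling with a 95% exact binomial interval of 8.52 to 84.1, which covers counting error only. CER1, an antagonist of nodal and BMP, fell to 26.0% of control (log2 fold change −1.92, adjusted p = 1.42e-05). Reads of CER1 in the PELP1-KD-labelled libraries were 8, 8 and 16. NOG and CHRDL1 had 0 reads in all 6 libraries.

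Of the 6 signal-carrying SMAD genes, 2 were higher and 2 lower. SMAD9, a BMP SMAD, fell from 292 ± 23.2 normalized reads to 93.1 ± 11.5 (SD over 3 libraries), a log2 fold change of −1.65 ± 0.11 (SE, adjusted p = 2.89e-10). SMAD4, the partner shared by both branches, had 2593 ± 49.0 and 2681 ± 101 normalized reads and was not called (log2 fold change 0.05, 95% interval −0.07 to 0.16, adjusted p = 0.358). Of 14 tested intracellular regulators, 3 were higher and 4 lower with no 2-fold change. TGIF2, a corepressor of SMADs, had the smallest p of these (log2 fold change −0.38, adjusted p = 8.15e-07), and 308 of its 3624 exon bases are shared with the read-through gene TGIF2-C20ORF24.

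TGF-beta response genes had no common direction, with 12 of 14 tested, 5 higher and 4 lower. CDKN2B, the cell cycle inhibitor p15, rose from 1595 ± 30.8 normalized reads to 4315 ± 35.9 (SD over 3 libraries), a log2 fold change of 1.44 ± 0.04 (SE, adjusted p = 2.36e-16). CTGF, a secreted matrix protein also known as a YAP target, fell to 45.1% of control (log2 fold change −1.15, adjusted p = 6.71e-15), and TIMP1, a metalloproteinase inhibitor, fell to 18.6% of a low level. COL1A1, a fibrillar collagen, rose from 81.3 ± 9.08 to 221 ± 5.80 normalized reads (log2 fold change 1.44, adjusted p = 3.44e-09).

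Of 7 tested BMP response genes, 0 were higher and 4 were lower, beside 26.8% and 26.7% of all tested genes. This list leaves out the members, of which SMAD6, SMAD7 and ID2 were higher and ID1 and ID3 lower. ATOH8, a helix-loop-helix factor that BMP induces in hepatocytes, had 156, 160 and 174 reads in control and 7, 5 and 2 in the PELP1-KD-labelled libraries, a log2 fold change of −4.93 ± 0.25 (SE, adjusted p = 2.72e-12). ID4, the remaining ID gene, fell from 467 ± 28.9 normalized reads to 159 ± 12.9 (SD over 3 libraries), a log2 fold change of −1.55 ± 0.09 (SE, adjusted p = 1.7e-11). MSX1, a homeobox factor, fell to 43.5% of control (log2 fold change −1.21, adjusted p = 0.000323). HAMP, which encodes hepcidin, had between 5 and 18 reads a library and was not called (log2 fold change 0.27, 95% interval −0.83 to 1.37). ID1, ID3 and ID4 were thus lower and ID2 higher within the ID family. Among the E proteins that they bind, TCF4 rose (log2 fold change 0.50, adjusted p = 1.66e-07), and 1 of the other two was lower and 1 not called.

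**Figure D4:**
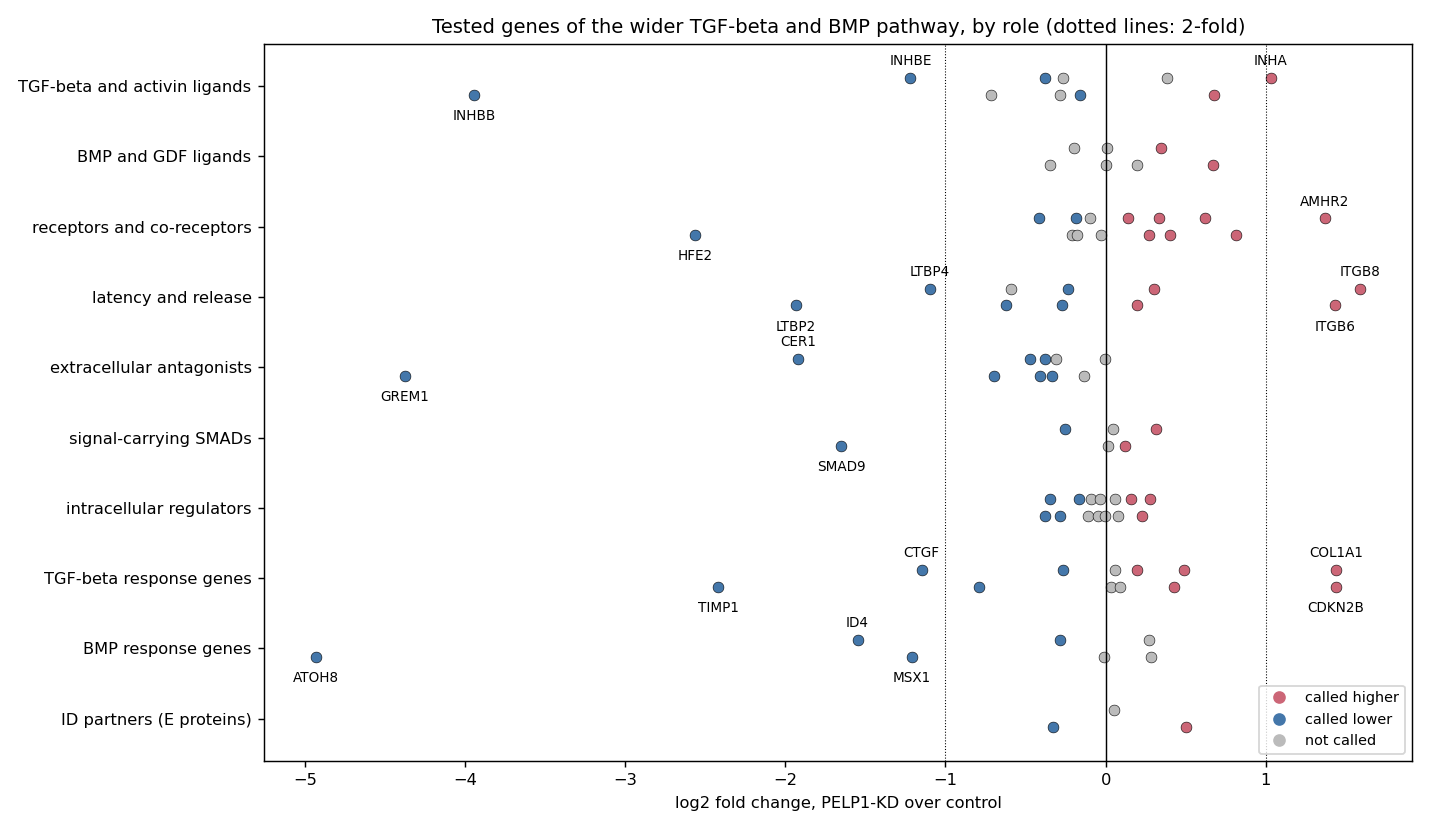
Log2 fold change, PELP1-KD over control (horizontal axis), of the 93 tested genes of the wider pathway, one row of points for each of 10 roles (vertical axis), with color for the call and dotted lines at a 2-fold change. In these lists, which leave out the members, the extracellular antagonists and BMP response genes called at all lie to the left of 0. ATOH8 at −4.93, GREM1 at −4.37 and INHBB at −3.94 lie farthest out.

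All 8 hepatocyte lineage markers examined, ALB and AFP among them, were tested, and their summed normalized reads lay between 778918 and 791651 in control and between 703144 and 713969 in the PELP1-KD-labelled libraries. This sum joins opposite changes, since 3 of the 8 were called higher and 5 lower, with ALB at 65.4% and AFP at 154% of control. Marker lists of other cell types that make or answer TGF-beta were also read. All libraries came from the cultured Hep3B line, so reads of these markers do not show that such cells were present. The stellate cell and fibroblast list of 8 genes summed to between 1397 and 1481 in control and between 1854 and 1881 in the PELP1-KD-labelled libraries, with 2 genes higher and 2 lower. The 6 leukocyte markers summed to between 1462 and 1641 and between 1951 and 2099, most of it CD68, which is not confined to macrophages and was called higher, while CD14 was called lower at 50.6% of control. CD163 was at 0 in all libraries. The 6 endothelial markers summed to between 63.9 and 72.8 in control and between 62.9 and 68.6 in the other group, with CDH5, KDR and STAB2 at 0 in all libraries and PECAM1, the 1 tested, not called at 93.7% of control. The 4 cholangiocyte markers summed to between 21254 and 22144 in control and between 32606 and 34521 in the other group, with 2 of the 4 called higher. The part of these markers in the changes above was not tested.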

How the data were processed

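Depth ran from 26758363 to 34456542 reads assigned to genes per library. Per the file headers, the authors deposited estimated counts per gene, made with featureCounts v1.5.0-p1 by strand on hg19 exons at a minimum mapping quality of 2, with reads of several places or genes shared out as fractions. The submitters' processing notes name HISAT2, the paper's methods TopHat2 and HTSeq, and the sources also differ on RNA extraction and on library kit. Counts were rounded. Genes that passed filterByExpr were fitted with edgeR 4.0.16 in R 4.3.3 (TMM, robust glmQLFit, glmQLFTest, Benjamini-Hochberg adjustment over the 14537 genes tested, called at an adjusted p below 0.05). Each SE was taken as the size of the log2 fold change divided by the root of F, and 95% intervals use 4 degrees of freedom. The median SE was 0.0632. RPKM used the exon length of the tables.

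The members, the 10 role lists and the marker lists were chosen with earlier results of these data known. The members were always named, as were HAMP, BMP2, BMP6 and SMAD4, and of each role list up to 4 called genes with at least a 2-fold change and the smallest p, or else the called gene with the smallest p. Promoters came from RefSeq (GRCh38.p14), and protein sequences were not used here.

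Alternatives were DESeq2 1.42.0, its size factors or upper-quartile scaling in edgeR, no low-count filter, at least 10 reads in every library, an adjusted p below 0.01, a replicate block, and each library left out. To check the pairing, each library's deviation from its group was compared with that of the same-numbered library of the other group. The correlations were 0.336, 0.247 and 0.665 over 6369 genes (genes are no independent replicates). The main fit had no block, so its p-values leave any pairing out, and the replicate block was run only as an alternative. Control replicate 2 with PELP1-KD replicate 1 gave 0.417, so replicates 1 and 2 are not told apart. Replicates of a group differed by more than sampling noise (chi-square over its degrees of freedom 1.94 to 7.02). The fits were also run on simulated counts with few changed genes and the same spread for every gene, a simpler setting than these data.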

Additional observations from a re-analysis of the deposited data

How the results depend on the processing

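TGFB1, TGFBR2, SMAD7, ID1 and ID3 kept their direction and an adjusted p below 0.05 under every alternative run. With each library left out in turn, TGFB1 lay between −1.65 and −1.52, TGFBR2 between −0.54 and −0.50, SMAD7 between 0.21 and 0.26, ID1 between −0.36 and −0.28 and ID3 between −0.55 and −0.45 (log2 fold change). SMAD6 lay between 0.11 and 0.22 and was also lost at an adjusted p below 0.01, and ID2 lay between 0.11 and 0.16. Of the genes not called, 5 changed sign with a library left out, namely TGFB2 between −0.057 and 0.024, BMP4 between −0.077 and 0.087, TGFBR1 between −0.014 and 0.14, BMP2 between −0.019 and 0.021 and BMP6 between −1.03 and 0.15, while SMAD4 and HAMP stayed above 0. BMP2 was −0.0020 with DESeq2's size factors, −0.0024 with upper-quartile scaling, −0.0020 with DESeq2 and −0.0037 with at least 10 reads in every library. Members called higher numbered between 2 and 4 with a library left out, and 4 were called lower in each of these fits. These fits called between 6764 and 7943 of the 14678 to 14702 genes they tested. The replicate block gave 3 members higher and 4 lower and, of the wider pathway, 27 higher and 36 lower. With the block, 8828 of the 14537 tested genes were called, against 7785 in the main fit. The block changed the call of PELP1 (adjusted p = 0.0106) and of no other gene named by the rule. PELP1 was also called without replicate 3 of PELP1-KD (log2 fold change −0.10, adjusted p = 0.0179). Without the low-count filter, the wider pathway had 26 genes higher and 38 lower, and 8061 of 18681 genes were called. The cause of these differences was not tested. Depth limits what can be said of HAMP and BMP6, at 18 reads or fewer a library.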
